A study of Mus musculus with 4 samples.

Results

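The genes described here are 10 markers of the microglial response to amyloid plaques, *Trem2*, *Tyrobp*, *Cst7*, *Itgax*, *Clec7a*, *Axl*, *Spp1*, *Cd9*, *Lgals3* and *Gpnmb*, chosen by name from the 27487 genes listed in the count tables of this series. They were followed across cell types, microglial states and genotypes in the cortex of Tg2576 mice and of their wild-type littermates at an age of 24 weeks. The strain, labelled B6;SJL-Tg(APPSWE)2576Kha and heterozygous for its transgene, carries human APP with the Swedish mutation, driven by a prion protein promoter, and is known to form plaques only later in life, so the comparison asks whether the plaque-response genes already differ before plaques. The tissue of PBS-perfused animals was dissociated and profiled by Drop-seq, a droplet method that counts unique molecular identifiers (UMIs) at the 3′ end of polyadenylated RNA. There were 4 libraries, one per sex and genotype, each a pool of 9 mice, so each combination of sex and genotype was 1 library and the spread between mice is not part of any value below. Where 4 values follow each other, they stand for wild-type females, Tg2576 females, wild-type males and Tg2576 males.

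In plaque-bearing brain, microglia around plaques switch to what is called the disease-associated state. TREM2, a lipid-sensing receptor, signals through its adaptor TYROBP (DAP12), and both are already made by resting microglia. The other 8 genes are known as induced members of the state: *Cst7* (a cathepsin inhibitor), *Itgax* (the integrin chain CD11c), *Clec7a* (the β-glucan receptor Dectin-1), *Axl* (a receptor tyrosine kinase that binds GAS6 on dying cells), *Spp1* (the secreted protein osteopontin), *Cd9* (a tetraspanin), *Lgals3* (the sugar-binding protein galectin-3) and *Gpnmb* (a lysosomal and membrane glycoprotein). Resting microglia are marked by homeostatic genes such as *P2ry12*, *Cx3cr1* and *Tmem119*.

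In the RefSeq annotation of GRCm38.p6 the genes lie on 6 chromosomes, *Trem2* at chr17:48346401-48352276, *Tyrobp* at chr7:30413782-30417582, *Cst7* at chr2:150570415-150578944, *Itgax* at chr7:128129526-128150657, *Clec7a* at chr6:129461591-129472785, *Axl* at chr7:25756500-25788924, *Spp1* at chr5:104435111-104441053, *Cd9* at chr6:125460266-125494760, *Lgals3* at chr14:47373860-47386167 and *Gpnmb* at chr6:49036518-49058182. *Clec7a* overlaps the annotated gene *Gm45969*, and *Cd9* overlaps *Gm26728* and *Gm28809*, so their counts are less certain where the counting could split reads. For 9 of them a promoter entry was present. The 250 bases before the start of transcription are shown for the 2 genes with the most UMIs and the 2 with the fewest among those 9, to set the abundant and the near-silent genes side by side. They lie at chr17:48346151-48346400 (plus strand, *Trem2*), chr6:125494761-125495010 (minus strand, *Cd9*), chr5:104434861-104435110 (plus strand, *Spp1*) and chr6:49036268-49036517 (plus strand, *Gpnmb*). Capitals mark matches to 3 motifs searched on both strands, PU.1 (GAGGAAGT), AP-1 (TGANTCA) and the E-box CACGTG, none of which contains another.
Trem2: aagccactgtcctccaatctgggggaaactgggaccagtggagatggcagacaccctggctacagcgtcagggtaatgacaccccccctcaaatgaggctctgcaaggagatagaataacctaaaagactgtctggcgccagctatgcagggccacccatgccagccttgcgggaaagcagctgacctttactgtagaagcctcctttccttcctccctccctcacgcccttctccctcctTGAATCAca
Cd9: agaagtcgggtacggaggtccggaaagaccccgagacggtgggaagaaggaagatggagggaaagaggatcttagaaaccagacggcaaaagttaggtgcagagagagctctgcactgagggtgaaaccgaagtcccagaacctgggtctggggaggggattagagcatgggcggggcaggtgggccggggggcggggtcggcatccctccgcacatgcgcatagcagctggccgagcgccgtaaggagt
Spp1: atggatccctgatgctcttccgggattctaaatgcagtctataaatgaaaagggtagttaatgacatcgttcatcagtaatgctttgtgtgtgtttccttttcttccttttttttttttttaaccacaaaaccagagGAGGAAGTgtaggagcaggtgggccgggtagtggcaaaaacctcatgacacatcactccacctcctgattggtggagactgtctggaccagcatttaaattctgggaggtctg
Gpnmb: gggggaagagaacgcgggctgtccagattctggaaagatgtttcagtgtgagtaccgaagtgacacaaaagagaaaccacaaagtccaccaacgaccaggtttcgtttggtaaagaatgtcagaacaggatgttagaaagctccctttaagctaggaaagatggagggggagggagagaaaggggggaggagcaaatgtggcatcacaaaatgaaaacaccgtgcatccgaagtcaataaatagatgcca
*Trem2* held TGAATCA, a match to TGANTCA with A at its free base, at position -9 from the start. *Itgax* was the other gene of the 9 with a match to TGANTCA, while 6.75% of all 32851 promoter windows held one. Binding of AP-1 was not tested. *Spp1* held a PU.1 match at position -113, against 2.44% of all windows. No window of the 9 held the E-box, which was found in 6.02% of all windows. UMIs were counted at the 3′ end, so the counts do not tell which start site was used.

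After filtering, 4835 cells remained, between 1010 and 1532 per library, with a median of 909 to 1331.5 UMIs per cell and 1593675 to 1758582 UMIs per library. *Xist* was read at 924 to 1034 CPM (UMIs of a gene per 1000000 UMIs) in the female libraries and at 0 and 1.71 CPM in the male libraries, and *Ddx3y* at 0 CPM in both female libraries, as labelled. The mouse *App* row was higher in Tg2576 than in wild-type mice in females (1575 against 889 CPM) and in males (1567 against 1178 CPM). The 13 clusters included 1855 microglia-like cells, 347 to 537 per library, in which all 10 of the microglia markers fixed for the naming were enriched. Among the microglia, cluster 2 was led by *Il1b*, *Tnf* and *Ccl4* and is called cytokine-high (760 cells). Cluster 3, led by *Gm16228*, *Lst1* and *Pag1*, and cluster 4, led by *Gm45540*, *Rgs1* and *Mir142hg*, are together called cytokine-low (600 and 495 cells). Cluster 3 took 137, 261, 65 and 137 cells from the libraries, and cluster 4 took 125, 121, 103 and 146. Of the marker lists of other cell types read in microglia, choroid plexus markers summed to 237 to 879 CPM, astrocyte markers to 480 to 741 CPM, endothelial markers to 402 to 590 CPM and oligodendrocyte markers to 439 to 568 CPM. Of the 9 macrophage markers 5 were detected, summing to 103 to 167 CPM, and *Pf4*, *Lyve1*, *Cbr2* and *Cd209f* were at 0. The part of these RNAs in the results was not tested. Barcode sequences shared between libraries numbered 6 among the kept cells.

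*Trem2* and *Tyrobp*, the receptor and its adaptor, were abundant in microglia of every library. *Trem2* was read at 581 and 700 CPM in wild-type and Tg2576 females and at 877 and 904 CPM in wild-type and Tg2576 males. *Tyrobp* was read at 761, 967, 1251 and 1369 CPM. For both genes the male libraries lay above the female libraries, and within each sex the Tg2576 library lay above the wild-type library. A *Trem2* UMI was found in 50.2% to 66.9% of microglia, against 1.32% to 3.72% of astrocytes, which should lack the gene and had a median of 859 to 1250 UMIs per cell where microglia had 1029 to 1405. Thinned to 500 UMIs per cell, the shares of microglia with a *Trem2* UMI were 26.1% to 33.4%. The shares of astrocytes at that depth were 0.518% to 1.16%. Over the 4 libraries, *Trem2* had 758 CPM in microglia, 102 CPM in macrophages and 26.4 CPM in astrocytes, and *Tyrobp* had 1074, 289 and 29.0 CPM. Among the named cell types microglia thus stood first for both genes and macrophages next, although the macrophages rested on 12 *Trem2* and 34 *Tyrobp* UMIs. Barcodes with fewer than 200 genes, which can hold free RNA, had 123 *Trem2* and 289 *Tyrobp* CPM. There were 1.42 *Tyrobp* UMIs per *Trem2* UMI in microglia (95% interval 1.33 to 1.51) and 1.10 in astrocytes (0.650 to 1.87).

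**Figure D1:**
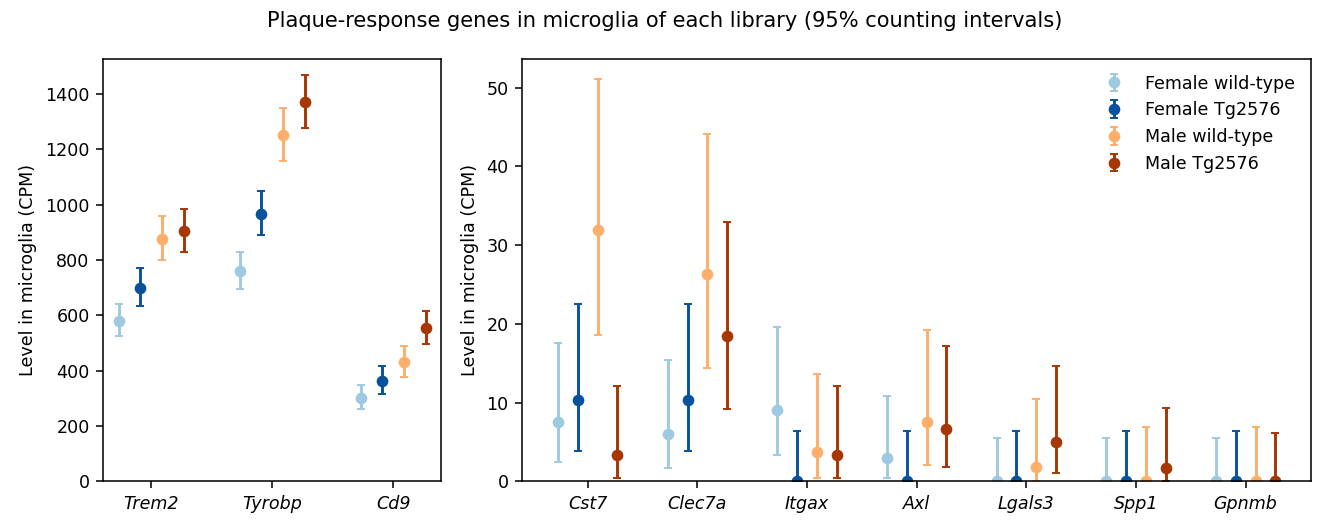
Level of each gene in microglia (CPM, linear axes that differ between the panels) in the 4 libraries, 1 point per library, with exact Poisson 95% intervals of counting error. *Trem2*, *Tyrobp* and *Cd9* lay between 302 and 1369 CPM, while the other 7 genes lay at or below 31.9 CPM in every library.

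*Cd9* was the only induced member with an abundant signal in microglia of all 4 libraries, and other cell types held as much or more of it. Its level in microglia was 302 and 363 CPM in wild-type and Tg2576 females and 430 and 552 CPM in wild-type and Tg2576 males. Over all libraries it was read at 894 CPM in oligodendrocyte precursors (OPCs), 616 CPM in the unnamed cluster led by *Npy* and *Fabp7*, 596 CPM in oligodendrocytes, 409 CPM in microglia, 323 CPM in macrophages, 281 CPM in choroid plexus cells, 226 CPM in mural cells and 162 CPM in astrocytes. This order rests on values pooled over libraries that contributed unequal numbers of cells. By library, OPCs had 464, 267, 1021 and 1261 CPM from 23, 8, 36 and 35 cells, and in Tg2576 females, with 2 UMIs, they lay below oligodendrocytes and microglia. The *Npy* and *Fabp7* cluster had 2, 21, 0 and 29 cells. In oligodendrocytes, the myelinating cells, *Cd9* had 386, 425, 686 and 851 CPM, the same order of libraries as in microglia. The *Npy* and *Fabp7* cluster rested on 56 UMIs, and its counting interval (466 to 800 CPM) overlapped those of OPCs (747 to 1060 CPM) and of oligodendrocytes (538 to 658 CPM). These levels are 3′-end counts and are compared between cell types for 1 gene at a time.

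The other 7 induced members were close to the limit of counting in microglia. Among 2376043 microglial UMIs there were 35 of *Clec7a*, 30 of *Cst7*, 10 of *Itgax*, 10 of *Axl*, 4 of *Lgals3*, 1 of *Spp1* and 0 of *Gpnmb*. The count of 0 for *Gpnmb*, in 1855 cells, allows up to 1.26 CPM (3 UMIs in all microglia). *Cst7* had 5, 6, 17 and 2 UMIs, which is 7.52, 10.3, 31.9 and 3.35 CPM. The male wild-type library was thus the highest, and the male Tg2576 library the lowest. *Clec7a* had 4, 6, 14 and 11 UMIs, or 6.02, 10.3, 26.3 and 18.4 CPM. The 11 *Clec7a* UMIs of the male Tg2576 library came from 2 cells, 1 of which held 10 of them. *Itgax* had 6, 0, 2 and 2 UMIs and *Axl* 2, 0, 4 and 4 UMIs. Neither gene was seen in the female Tg2576 microglia, where a count of 0 among 581328 UMIs allows up to 5.16 CPM.

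Several of these genes were read at higher levels outside microglia. *Axl* had 71.7 CPM in mural cells (19 UMIs), 51.0 CPM in macrophages (6 UMIs) and 36.1 CPM in astrocytes (41 UMIs), against 4.21 CPM in microglia. In mural cells it was detected in all 4 libraries, at 72.0, 66.6, 67.7 and 78.3 CPM. *Lgals3* had 76.5 CPM in macrophages (9 UMIs) and 55.2 CPM in choroid plexus cells (11 UMIs), against 1.68 CPM in microglia. Its macrophage UMIs numbered 0, 4, 0 and 5 by library, all in Tg2576 mice, and the fit with no filter on low counts did not call it (log2 fold change 5.12 ± 2.23, edgeR, unadjusted p = 0.0218, adjusted p = 0.996). *Clec7a* had 93.6 CPM in macrophages (11 UMIs), and the libraries held 0, 8, 1 and 2 of them, in 16, 33, 25 and 29 macrophages. The cluster called macrophage was mixed. All 9 macrophage markers were enriched in it, but so were 8 of 8 ependymal, 5 of 6 neutrophil and 3 of 5 T or NK cell markers, and its leading genes included *Ccdc153*, *Ngp* and *Camp*. At resolution 1, 24 cells formed a separate ependymal cluster. The levels given for macrophages are those of this mixed cluster, and the part of the other cells in them was not tested. *Cst7* had 30 of its 32 UMIs in kept cells in microglia. *Spp1* had 7 UMIs and *Gpnmb* 2 UMIs in all kept cells.

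**Figure D2:**
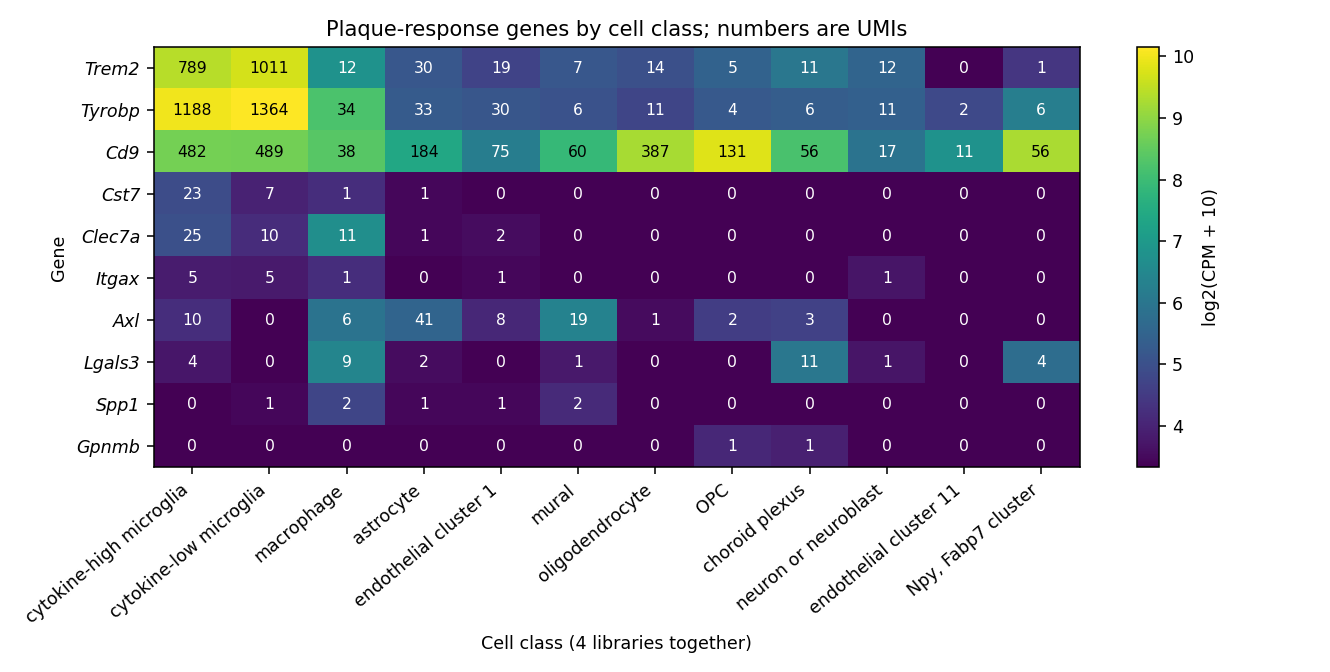
Level of each gene (rows, colour as log2(CPM + 10)) in each cell class (columns) over the 4 libraries together, with the number of UMIs behind it printed in each field. *Trem2* and *Tyrobp* stood highest in microglia, *Cd9* in OPCs, *Axl* in mural cells and *Clec7a* and *Lgals3* in the mixed macrophage cluster.

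The genes whose pattern was most like each member were taken over 42 profiles of cell type by library among 5977 genes with at least 200 UMIs. These correlations are a description over profiles that share libraries and cells. *Trem2* was closest to *Fam105a* (Pearson r = 0.92) and *E230029C05Rik* (0.91), and *Tyrobp* to *Ncf1* (0.93), a subunit of the phagocyte NADPH oxidase, and *Tbxas1* (0.92), the thromboxane synthase. *Cd9* was closest to *Cd81* (0.71), another tetraspanin, and to the lysosomal membrane gene *Lamp1* (0.70). For *Cst7* they were *Rnf19b* (0.76) and *P2ry6* (0.74), for *Clec7a* *Armc3* (0.76) and *Ms4a6b* (0.74), for *Itgax* *C130089K02Rik* (0.63) and *Arid3a* (0.60), for *Axl* *Ptpn9* (0.69) and *Hspa2* (0.62), and for *Lgals3* *1500015O10Rik* (0.70) and *Atp6v1d* (0.67). *Gpnmb*, with 2 UMIs, reached at most 0.53 (*Bscl2*). In all kept cells *Itgax* had 13 UMIs, *Cst7* and *Lgals3* 32 each, *Clec7a* 49 and *Axl* 90. Spread over 42 profiles, their correlations thus rest on few counts.

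In the microglial states, *Trem2* was lower in cytokine-high than in cytokine-low cells in all 4 libraries. It had 560 against 600 CPM and 647 against 723 CPM in wild-type and Tg2576 females, and 744 against 1085 CPM and 747 against 1109 CPM in wild-type and Tg2576 males. The log2 ratio of cytokine-high over cytokine-low was -0.10 (-0.40 to 0.20) and -0.16 (-0.49 to 0.16) in the female libraries and -0.54 (-0.81 to -0.28) and -0.57 (-0.82 to -0.32) in the male libraries, with intervals of counting error. Among all 6285 genes compared, 16% were lower in the cytokine-high cells of all 4 libraries. *Tyrobp* was lower in cytokine-high cells in 3 of 4 libraries, with log2 ratios of 0.02 (-0.24 to 0.27), -0.32 (-0.60 to -0.04), -0.26 (-0.49 to -0.04) and -0.31 (-0.52 to -0.11). The ratios of *Cd9* had intervals that held 0 in all 4 libraries, from -0.12 to 0.18. Of the scarce genes, *Cst7* had 23 UMIs in cytokine-high and 7 in cytokine-low cells, *Clec7a* had 25 and 10, and *Axl* had 10 and 0. Of the 25 *Clec7a* UMIs, 10 lay in 1 male Tg2576 cell that held neutrophil markers and no microglia marker, and without that library 14 were in cytokine-high and 10 in cytokine-low cells. The male wild-type library held 15 of the 23 *Cst7* UMIs, and without it 8 were in cytokine-high and 5 in cytokine-low cells. No test was made between the states, since they were defined from the same cells, although the 10 genes took no part in the clustering.

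**Figure D3:**
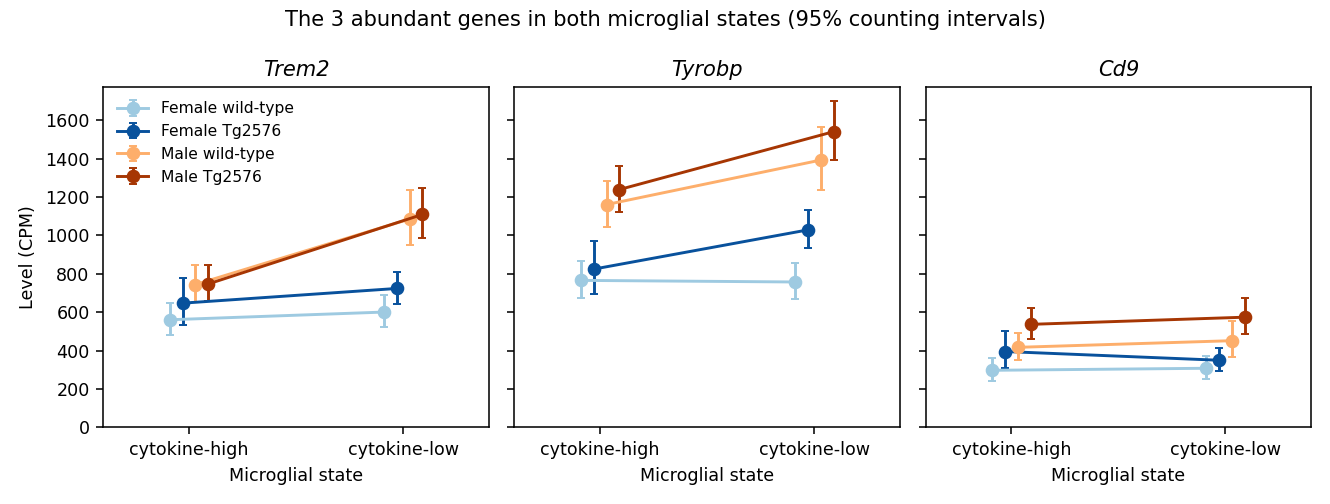
Level (CPM) of *Trem2*, *Tyrobp* and *Cd9* in cytokine-high and cytokine-low microglia, 1 line per library, with exact Poisson 95% intervals of counting error. In the male libraries *Trem2* had 744 and 747 CPM in cytokine-high against 1085 and 1109 CPM in cytokine-low cells, while the intervals of *Cd9* overlapped between the states in all 4 libraries.

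None of the plaque-response genes was called between Tg2576 and wild-type microglia in the test shared by both sexes. The test was edgeR's quasi-likelihood F test on UMIs summed per library, with sex as a covariate and 1 residual degree of freedom. It called 21 of 7478 genes (0.281%) at an adjusted p under 0.05. Of the 10 genes, 4 passed its filter on low counts and 0 were called. None of the 4 had an unadjusted p under 0.05 (a count of 0, against 656 of all genes), and DESeq2 called 0 genes in all. The log2 fold changes (Tg2576 over wild-type) were 0.10 ± 0.14 (SE) for *Trem2* (adjusted p = 0.898), 0.19 ± 0.14 for *Tyrobp* (0.762), 0.26 ± 0.15 for *Cd9* (0.636) and -0.15 ± 0.57 for *Clec7a* (0.971). Each edgeR SE, here and below, is the size of the fold change divided by the square root of F. The SEs of DESeq2 were larger, at 0.24, 0.23, 0.28 and 1.09 for the same 4 genes. Over 16 alternatives the adjusted p of *Trem2*, *Tyrobp* and *Cd9* ranged from 0.604 to 1.00. Their fold changes ranged from -0.17 to 0.38, from -0.14 to 0.53 and from -0.05 to 0.54. The negative ones came without the male Tg2576 library (all 3 genes) or without the female wild-type library (*Trem2* and *Tyrobp*). Here and below, the genotype fits that left out 1 library had no sex covariate. In them 1 genotype held both sexes and the other only 1, so sex and genotype were mixed. The other 6 genes did not pass the filter. With no filter on low counts 9 of the 10 genes were fitted and 0 were called, and 1 of them, *Cst7*, had an unadjusted p under 0.05 (log2 fold change -1.44 ± 0.60, edgeR, unadjusted p = 0.0165, adjusted p = 0.904). Of all 20609 genes in that edgeR fit, 29 were called and 878 had an unadjusted p under 0.05. On simulated counts for the same comparison of 7478 genes, the test recovered 38.3% of changes of 1 and 82.1% of changes of 2 on the log2 scale, and smaller changes, such as those fitted here, were not simulated. The simulated counts had the same dispersion for all genes and no sex effect. Recovery was averaged over randomly chosen genes of all levels, so it does not give the power for any single member.

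In each of the separate states 3 of the 10 genes passed the filter, and none of them was called. In cytokine-high microglia edgeR called 0 of 5215 genes (0%), although 282 had an unadjusted p under 0.05, and DESeq2 also called 0, and *Cd9* had a log2 fold change of 0.36 ± 0.18 (edgeR, adjusted p = 0.832). In cytokine-low microglia 6 of 5362 genes (0.112%) were called by edgeR, none of them among the 10, and *Tyrobp* had a log2 fold change of 0.28 ± 0.14 (adjusted p = 0.755). No difference of the genotype effect between the states was called for the 3 genes tested, with interaction terms of -0.05 ± 0.20 for *Trem2*, -0.18 ± 0.18 for *Tyrobp* and 0.11 ± 0.24 for *Cd9* on the log2 scale (edgeR, all with adjusted p = 0.997, where 10 of 6285 genes, or 0.159%, were called). The endothelial cells tested were cluster 1 alone, a mixed cluster, and the 72 cells of endothelial cluster 11 were left out. Cluster 1 was enriched in 10 of 10 endothelial and 5 of 5 erythrocyte markers and led by *Hbb-bt*, *Hba-a2* and *Hba-a1*. Outside microglia, *Cd9*, *Axl* and *Tyrobp* could be tested in astrocytes, and *Cd9* in the mixed macrophage cluster, oligodendrocytes and these endothelial cells. Over these 4 fits 0 genes of the 10 were called, while the background was 0% of 510 genes in macrophages, 0.112% of 5337 in astrocytes, 0% of 3086 in oligodendrocytes and 0.35% of 5433 in endothelial cells. DESeq2 called 0.0375% of genes in astrocytes and 0.0368% in endothelial cells, again with none of the 10. *Axl* in astrocytes had 43.9, 20.7, 43.3 and 30.9 CPM, with a log2 fold change of -0.77 ± 0.52 (edgeR, adjusted p = 0.774).

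Within each sex there was 1 library per genotype, so the ratios carry counting intervals and no test. In females the intervals excluded 0 for *Trem2* (log2 ratio 0.27, 0.07 to 0.47) and *Tyrobp* (0.35, 0.17 to 0.52), and held 0 for *Cd9* (0.26, -0.02 to 0.55). In males they excluded 0 for *Cd9* (0.36, 0.11 to 0.61) and *Cst7* (-3.25, -6.41 to -1.18), and held 0 for *Trem2* (0.04, -0.14 to 0.23) and *Tyrobp* (0.13, -0.02 to 0.28). That is 2 of the 5 members with at least 10 UMIs in each sex, where the interval excluded 0 for 9.92% of 9724 genes in females and 10% of 9524 genes in males. By direction, these were 5.39% higher and 4.54% lower in Tg2576 females, and 5.3% higher and 4.69% lower in Tg2576 males. With cells thinned to 500 UMIs, 1 of these intervals in females and 0 in males excluded 0, and the log2 ratio of *Cd9* in males was -0.013 (-0.44 to 0.42). Other settings moved the counts both ways, and with at least 500 genes per cell the count in males rose, as listed with the alternatives below. *Trem2*, *Tyrobp* and *Cd9* were higher in Tg2576 than in wild-type microglia in both sexes, as were 31.7% of the 7478 genes tested. Within cytokine-high cells the female intervals held 0 for *Trem2* (0.21, -0.14 to 0.55) and *Tyrobp* (0.11, -0.20 to 0.41). Within cytokine-low cells they excluded 0 (0.27, 0.006 to 0.53, and 0.44, 0.21 to 0.67). Cytokine-high cells numbered 195 in wild-type and 132 in Tg2576 females, and the part of this difference in the ratios was not tested.

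**Figure D4:**
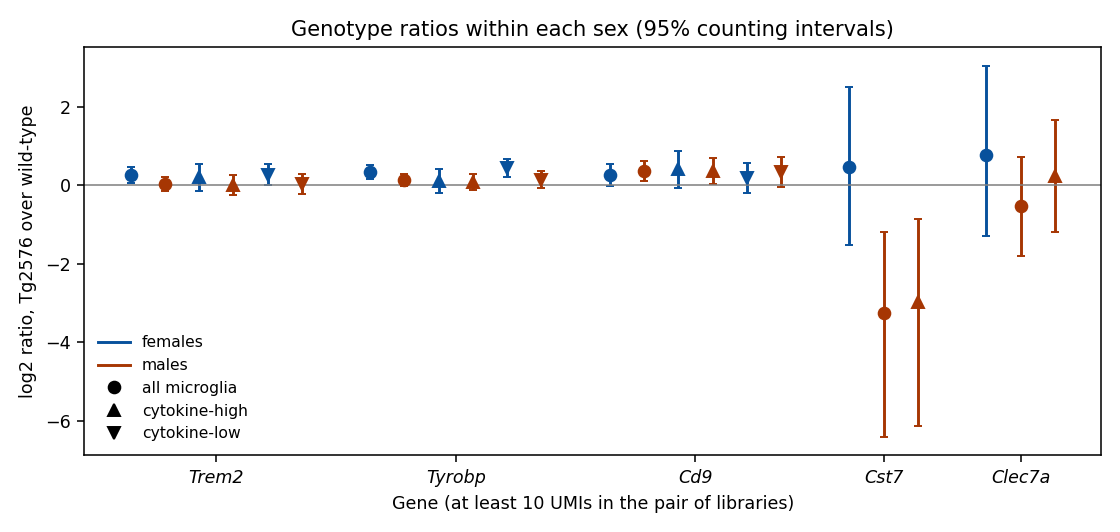
Genotype ratio (log2, CPM in Tg2576 over CPM in wild-type microglia) for the 5 genes with at least 10 UMIs in the pair of libraries, by sex (colour) and in all, cytokine-high or cytokine-low microglia (symbol), with exact conditional 95% intervals of counting error. The points of *Trem2*, *Tyrobp* and *Cd9* lay between 0.01 and 0.44, and that of *Cst7* in all male microglia at -3.25.

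The *Cst7* and *Clec7a* UMIs of male microglia came from few cells. The 17 *Cst7* UMIs of the male wild-type library lay in 11 of 347 cells, with at most 4 in 1 cell, and the 2 UMIs of the male Tg2576 library in 2 of 537 cells. The male Tg2576 cell with 10 *Clec7a* UMIs was placed in cluster 2, held 637 UMIs, 49 of *S100a8* and 59 of *S100a9*, and none of the 10 microglia markers. It held all 109 neutrophil marker UMIs found in microglia of any library. Without it, an exclusion chosen after its values were seen, the male Tg2576 microglia held 1 *Clec7a* UMI against 14 in male wild-type microglia, a log2 ratio of -3.97 (-9.37 to -1.26) instead of -0.51 (-1.80 to 0.73). The male wild-type cells were left as they were, although 1 of them, in cluster 3, held 5 of the 14 UMIs and another, with a single microglia marker UMI, held 1.

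Plaque-associated microglia are known to express several induced members together. Thinned to 500 UMIs, 0 of 436, 0 of 444, 0 of 326 and 0 of 473 microglia held at least 3 of the 8 induced members, which allows shares of cells with such UMIs at this depth of up to 0.688%, 0.676%, 0.920% and 0.634%. These are limits on detection and not on the share of cells that express 3 of the genes, since 7 of the 8 are hardly countable at 500 UMIs. At least 1 of the 8 was found in 11.5% (8.63 to 14.8), 16.9% (13.5 to 20.7), 22.4% (17.98 to 27.3) and 20.5% (17.0 to 24.4) of cells, and with *Cd9* set aside at least 1 of 7 was found in 0.229%, 1.13%, 1.84% and 1.06%. Without thinning, 1 of 457, 0 of 514, 4 of 347 and 0 of 537 cells held at least 3 of the 8, at median depths of 1381, 1035, 1405 and 1029 UMIs per cell. Thus 4 of the 5 cells were from male wild-type mice, and none from Tg2576 mice.

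With *Cd9* set aside, 5 male wild-type cells and 1 female wild-type cell held at least 2 of the 7 remaining genes without thinning, and no Tg2576 cell did. The wild-type libraries had the higher median depths, and thinned to 500 UMIs 0, 0, 1 and 0 cells held 2 of the 7. The 6 cells found without thinning were picked for this pattern, so the rest is a description. All 6 lay in cytokine-high cluster 2, which was also the deepest, with a median of 1400.5 UMIs per cell against 856 and 1150 in clusters 3 and 4. The richest held 4046 UMIs, with 4 of *Cst7*, 2 of *Axl*, 1 of *Itgax*, 23 of *Tyrobp*, 6 of *Cd9*, 180 of *Apoe* and 59 of the microglia markers, and 1 of the macrophage markers. Another, with 3787 UMIs, held 2 of *Clec7a*, 1 of *Cst7*, 10 of *Tyrobp*, 59 of *Apoe*, 9 of *Lpl* and 73 of the microglia markers. *Apoe*, the lipid carrier, and *Lpl*, a lipase, are themselves known plaque-response genes. Of the 6, 1 cell held a single microglia marker UMI, and the other 5 held 25 to 73. None of them was called a doublet.

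**Figure D5:**
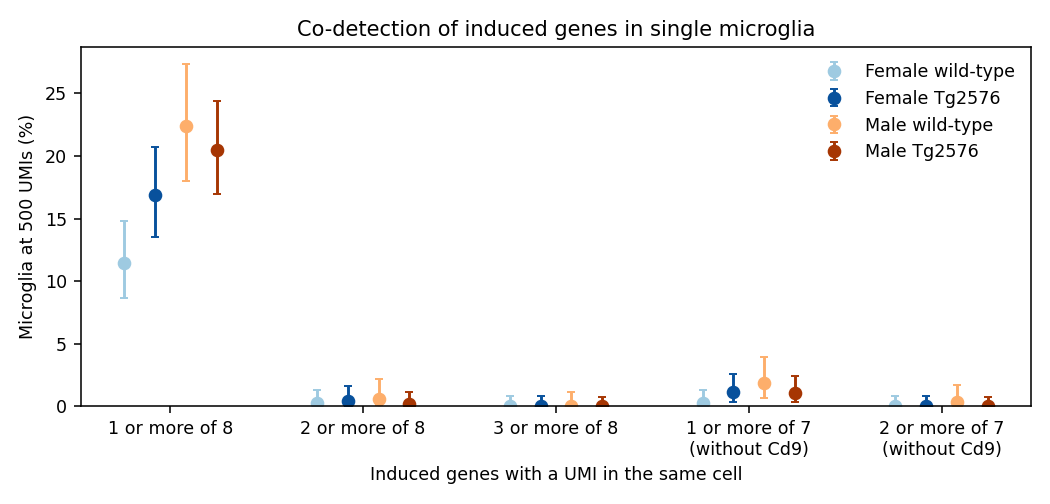
Share of microglia (%, each cell thinned to 500 UMIs) with UMIs of at least 1, 2 or 3 of the 8 induced members, and of at least 1 or 2 of the 7 other than *Cd9*, by library with exact Clopper-Pearson 95% intervals. No cell held 3 of 8, and *Cd9* accounted for most of the cells with 1 or more, a share of 11.5% with it and 0.229% without it in female wild-type mice.

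Of 25 further plaque-response genes, 19 passed the filter in microglia, 0 rose and 1 fell. Over all 7478 genes the same fit called 21 (0.281%), of which 2 were higher and 19 lower in Tg2576. The median log2 fold change was -0.06 for the list and -0.01 over all genes. The gene of the list that fell was *Csf1*, which encodes a growth factor for microglia. It had 179 and 89.5 CPM in wild-type and Tg2576 females and 143 and 92.1 CPM in wild-type and Tg2576 males, with a log2 fold change of -0.87 ± 0.20 (edgeR, adjusted p = 0.029). Both wild-type libraries lay above both Tg2576 libraries. *Csf1* was called under 7 of 16 alternatives and in none that left out a library or used DESeq2, with adjusted p from 0.00928 to 1.00 and log2 fold changes from -1.06 to -0.53. In cytokine-low cells it fell by 2.01 on the log2 scale (edgeR, adjusted p = 0.0223), was called under 5 of 13 alternatives and had -0.85 at resolution 1 (adjusted p from 0.00232 to 1.00 over the 13). In cytokine-high cells *Csf1* was not called (-0.17 ± 0.22, edgeR, adjusted p = 0.931). The shares of the 2 states differed between libraries, and their part in the fall over all microglia was not tested. *Apoe* was not called in microglia (-0.24 ± 0.16, edgeR, adjusted p = 0.701). The highest of the list, *Ctsd* and *B2m*, a lysosomal protease and the class I light chain, were read at 3096 and 2399 CPM with log2 fold changes of -0.06 ± 0.14 and 0.23 ± 0.14 (edgeR, adjusted p = 0.949 and 0.677). Over all libraries, 5 genes of the list were under 10 CPM in microglia, among them *Ch25h*, *Igf1* and *Apoc1*.

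Of the 16 homeostatic microglia genes, 16 were tested and 0 were called by edgeR or DESeq2 (2 had an unadjusted p under 0.05 in edgeR), with a median log2 fold change of 0.13. The most abundant, *Cst3* (39084 CPM), had a log2 fold change of 0.19 ± 0.17 (edgeR, adjusted p = 0.812). Of the 25 signalling partners and ligands of the members, 22 were tested and 0 were called by edgeR or DESeq2 (1 had an unadjusted p under 0.05 in edgeR), with a median of 0.10. *Cd81*, a tetraspanin partner of CD9, had 1084 CPM and a log2 fold change of 0.18 ± 0.14, and *Mertk*, which like AXL binds GAS6, had 862 CPM and a log2 fold change of 0.01 ± 0.14 (edgeR, adjusted p = 0.776 and 0.992). *Mertk* was thus read where *Axl* was near 0 in microglia, as counts of 2 different genes not scaled by length.

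The abundant members were also compared between the sexes, a contrast added after the values were seen. Both male libraries lay above both female libraries for *Trem2*, *Tyrobp* and *Cd9*, as did 23.7% of 7478 genes. The sex term of the same edgeR fit gave log2 fold changes (male over female) of 0.46 ± 0.14 for *Trem2* (adjusted p = 0.0415), 0.59 ± 0.14 for *Tyrobp* (0.00695) and 0.54 ± 0.15 for *Cd9* (0.0223), and called 384 genes (5.14%), of which 182 (2.43%) were higher in males. In cytokine-low cells *Trem2* and *Tyrobp* were called, at 0.70 ± 0.14 each (edgeR, adjusted p = 0.00671 and 0.00471, against 2.18% of genes called and 1.21% called as higher in males), and in cytokine-high cells none was, against 0.211% of genes. *Clec7a* in all microglia had 1.42 ± 0.58 (edgeR, adjusted p = 0.156). None of the 3 was called by DESeq2 (0.187% of genes) and 1, *Tyrobp*, with no filter on low counts (1.35% of genes). None was called when any 1 of the 4 libraries was left out (edgeR, adjusted p from 0.0777 to 0.619), where the fold changes ranged from 0.36 to 0.73. The fits that left out a library held sex as their only term, without genotype. The mitochondrial share of microglial UMIs also moved with sex, as did *Malat1* (4.27%, 4.21%, 3.15% and 2.30%). The mitochondrial share was 6.95% and 6.71% in the female wild-type and Tg2576 libraries and 4.83% and 3.48% in the male ones. Without mitochondrial genes and *Malat1*, *Tyrobp* and *Cd9* were still called and *Trem2* was not, and both male libraries still lay above both female libraries for all 3 genes. With 1 library per group, sex and library preparation cannot be told apart.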

How the data were processed

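Drop-seq libraries of dissociated cortex were deposited as gene by barcode tables of whole-number UMI counts, which the authors made from 3′-end reads (build mm10 and Seurat 3.1.4 per the labels; the aligner is not given in the sources used here). Each table held 3000 barcodes. Cells with 200 to 7000 genes and at most 20% mitochondrial UMIs were kept, in place of the limit of 5% that the paper states for its own THY-Tau22 libraries. SCTransform, 2500 variable genes (without the members, further plaque-response, mitochondrial and sex-linked genes), 19 principal components and resolution 0.5 gave 13 clusters (Seurat 5.3.0). A cluster was named from at least 3 fixed markers enriched 2-fold, and, added after the clusters were seen, 50% of its list. Scrublet calls were left out only as an alternative.

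Counts summed per library were tested with edgeR 4.0.16 (filterByExpr, TMM, Benjamini-Hochberg) and, as an alternative, DESeq2 1.42.0. The edgeR fits were tested on simulated data. Fits that left out 1 library kept a single term, as the genotype fits dropped sex and the sex fits dropped genotype. Levels are CPM of a class with exact Poisson 95% intervals, ratios have exact conditional binomial intervals, and shares Clopper-Pearson intervals; all cover counting error only, and a 0 allows up to 3 counts. Members and lists were chosen with earlier results of these data known. Other genes were named if called in a genotype fit or among the 2 most abundant of their list, and the 2 most like each member. Some genes that this rule names are not reported here.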

Additional observations from a re-analysis of the deposited data

Results flagged for a closer look

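A difference of the genotype effect between the microglial states was called for 2 of the 18 further plaque-response genes tested. It was the interaction term of edgeR's fit on 8 sums, which called 10 of 6285 genes (0.159%). For *Csf1* the term was 1.86 ± 0.47 on the log2 scale (adjusted p = 0.0469). It had 88.7, 22.1, 125 and 30.8 CPM in cytokine-low cells and 272, 246, 154 and 139 CPM in cytokine-high cells of wild-type and Tg2576 females and wild-type and Tg2576 males. The term was called under none of 10 alternatives (adjusted p from 0.0530 to 1.00). For *Apoe* the term was -0.91 ± 0.20 (edgeR, adjusted p = 0.00956), and it was called under 2 of 10 alternatives (adjusted p from 0.00337 to 1.00). *Apoe* had 652, 887, 1533 and 673 CPM in cytokine-high and 514, 632, 418 and 743 CPM in cytokine-low cells in the same order. The states thus moved in opposite directions in males only, while in females both were higher in Tg2576. Of the 497 *Apoe* UMIs of male wild-type cytokine-high cells, 180 lay in the 1 cell that was also richest in *Cst7*, without which the level was 990.5 CPM. Its part in the interaction was not tested.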

How the results depend on the processing

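Where they could be tested, the plaque-response genes were called in no genotype fit under any alternative run, in microglia, either state, the interaction or the 4 other cell types. The fits held 0 to 9 of the 10 genes. None of the 10 was tested in macrophages, astrocytes and endothelial cells with a limit of 5%. The same held in macrophages with a limit of 10%, with at least 500 genes and without doublets, so no call was possible there. Counts of all genes called moved. In microglia, 21 genes became 0 with DESeq2 and with no sex covariate, 46 with DESeq2 size factors in edgeR and with all 2500 variable genes, 1 at resolution 0.06, 40 at resolution 1, 35 with no mitochondrial limit, 13 with a limit of 5%, 33 with at least 500 genes per cell, 45 without called doublets and 2 to 11 with 1 library left out. In cytokine-high microglia, 0 became 3 with DESeq2 size factors, 13 with no filter on low counts, 4 at resolution 1, 6 with no mitochondrial limit, 5 with all variable genes, 1 and 10 with limits of 5% and 10%, 10 with at least 500 genes and 3 to 7 with 1 library left out. In cytokine-low microglia, 6 became 0 with DESeq2 and with no sex covariate, 2 with DESeq2 size factors, 17 with no filter, 1 at resolution 1, 16 with all variable genes, 10 with a limit of 10% and 18 without doublets. In the interaction, 10 became 0 with DESeq2, at resolution 1, with all variable genes and with a limit of 5%, 5 with no filter, 2 with no mitochondrial limit, 3 with a limit of 10%, 4 with at least 500 genes and 6 without doublets. The sex term called 384 genes, against 14 with DESeq2, 143 at resolution 0.06, 223 with a limit of 5% and 19 to 104 with 1 library left out, and 3 members, against 0 with DESeq2, 1 with no filter, at resolution 0.06 and with a limit of 5%, 2 without mitochondrial genes and *Malat1*, and 0 with any 1 library left out. The members whose counting interval excluded 0, 2 in each sex, became 0 in females and 1 in males with a limit of 5%, 1 in females with a limit of 10%, 4 in males with at least 500 genes, and 1 in females and 0 in males with thinned cells, where *Cd9* in males went to -0.013 (-0.44 to 0.42). The share of all genes with such an interval was taken in the main setting only (9.92% in females and 10% in males). The counts under the alternatives thus have no background to be read against. Co-detection in males moved from 0 to -1.15 percentage points without thinning. The causes of these moves were not tested. No paired analysis was possible because each group holds 1 library, so replicate number 1 pairs nothing beyond the sex term. Resolution 0.06 gave 1 microglial cluster and hence no states. The limits on cells were applied to the main clusters without clustering anew.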

Other observations

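Of 10 cytokine genes, the class that leads the cytokine-high cells, 9 were tested in all microglia. Over all 7478 genes this fit called 2 as higher and 19 as lower in Tg2576. Of the 9, 1 was called, *Il1a*, which fell in Tg2576 mice with a log2 fold change of -0.96 ± 0.18 (edgeR, adjusted p = 0.00445). It had 558 and 175 CPM in wild-type and Tg2576 females and 377 and 328 CPM in wild-type and Tg2576 males, and the cytokine-high state held 195 of 457, 132 of 514, 179 of 347 and 254 of 537 microglia. It was called under 10 of 16 alternatives (adjusted p from 1.64e-06 to 1.00), and not by DESeq2 (-0.99), with no sex covariate (-0.95), at resolution 0.06 (-0.97) or without the female wild-type (-0.62), female Tg2576 (-0.57) or male wild-type library (-1.23). *Il1a* was chosen after its values were seen.

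Barcodes left out of the comparisons also carried members. In barcodes with fewer than 200 genes, *Tyrobp* had 207 and 212 CPM in female wild-type and Tg2576 libraries and 291 and 475 CPM in male ones, and *Trem2* had 97.7, 83.1, 155 and 170 CPM in the same order. The female levels of *Tyrobp* overlapped in their counting intervals, and the male Tg2576 interval (389 to 574 CPM) lay above that of male wild-type (224 to 372 CPM). The 2 *Gpnmb* UMIs outside kept cells both came from 1 such barcode of the male wild-type library. Barcodes over 20% mitochondrial held 25 *Axl* and 78 *Cd9* UMIs, and 2 *Cst7* UMIs.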
